A study of Drosophila melanogaster with 4 samples.

Results

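The 3L interior is the left arm of chromosome 3 of Drosophila melanogaster without the outermost 2 Mb at its telomere and at its centromere side. On the assembly used by the files, FlyBase release 5, it runs from 2000001 to 22543557 and measures 20.5 Mb. Its members are the lines of the whole-series list whose midpoint lies in this span, a choice by position that uses no measured value. There were 1912 such lines among the 12362 of the list, or 15.5%. The files name 1911 of them regions of significant enrichment and 1 a region of significant depletion.

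The samples came from wild-type Oregon-R animals in larval instar 3, the last larval stage, and the labels name no single tissue. Chromatin immunoprecipitation with sequencing (ChIP-seq) used a rabbit polyclonal antibody from Millipore against histone H3 monomethylated at lysine 27 (H3K27me1). There were 2 ChIP samples, called replicate 1 and replicate 2, each with its own list of regions, and 2 input samples of the same strain and stage, for which no file was analysed here. Whether each replicate had its own larval collection is not said in the labels, and differences between replicates can be technical. All values below come from lists of called regions; read depth is unknown, no background level from input can be set beside them, and nothing separates a smaller share of marked cells from a weaker mark in each cell.

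H3K27me1 is the first of the methylation states that histone H3 can carry at lysine 27. In flies the methyltransferase E(z), the catalytic subunit of Polycomb repressive complex PRC2, places the mono-, di- and trimethyl forms, and the demethylase Utx removes methyl groups from this residue. The trimethyl form is known for Polycomb-silenced domains, whereas the monomethyl form has been mapped over transcribed genes in mammalian cells. The left arm of chromosome 3 is a euchromatic autosomal arm in which gene-dense and gene-poor stretches alternate. Gene positions on release 5 were not used here, so regions are described by position alone.

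H3K27me1 regions covered 19.7% ± 2.8 of the 3L interior in the replicates (SD, n = 2). Replicate 1 had 1374 regions covering 21.7% of it, and replicate 2 had 1100 regions covering 17.7%. The whole-series list covered 32.5%, or 6.67 Mb. Its regions lay at a density of 93.1 per Mb, against 66.9 per Mb in replicate 1 and 53.5 per Mb in replicate 2. Replicate 1 was thus the denser of the replicate lists, and the whole-series list was denser than either.

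Many regions were narrow. The median width of the members was 2010.5 bp, with quartiles of 1374 and 3928.5 bp, and the replicate lists had medians of 2199 bp (replicate 1) and 2300.5 bp (replicate 2). Members under 2 kb numbered 946 (49.5%) and held 20.04% of the bases of all members. Those of 2 to 10 kb numbered 851 and held 53.3%. Long blocks of 10 kb or more were 115, or 6.01% of the members, and held 26.7% of the bases. A small set of long blocks therefore carried more bases than all the narrow regions together.

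The deposited score of each region is the authors' own value on a scale that is not stated, so differences and no folds are given. Members had a median score of 0.38, with quartiles of 0.33 and 0.46. Replicate 1 had a median of 0.55 and replicate 2 of 0.54. Score levels of lists made separately are not compared. Exceptions below are a correlation of the replicate scores and a ranking by the lower of them. Wider members had higher scores: the median was 0.33 under 2 kb, 0.44 at 2 to 10 kb and 0.61 at 10 kb or more. The rise did not hold at the narrowest end, where the 419 members under 1301 bp had a median of 0.36 and the 527 members from there to 2 kb had 0.31. Across the 1912 members width and score had a Spearman coefficient of 0.58, and across the regions of the replicate lists it was 0.74 and 0.69. These coefficients are descriptions across regions of shared libraries.

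**Figure D1:**
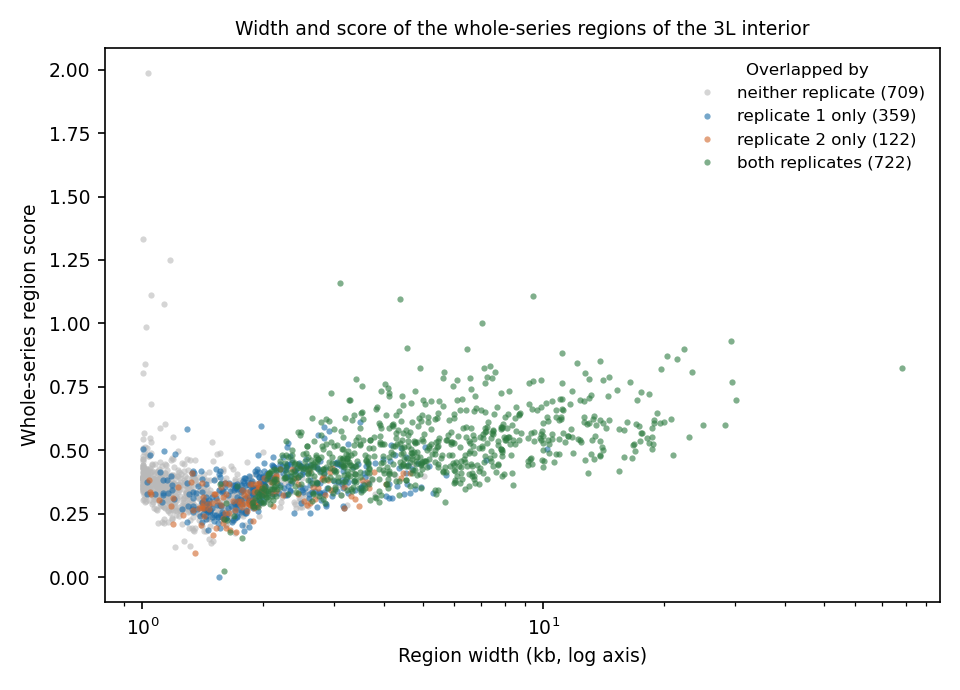
Width (x axis, kb, log axis) and whole-series score (y axis, no stated unit) of each of the 1912 members of the 3L interior; colours give the replicate lists that overlap the region. The 722 members found in both replicates fill the wide, high-scoring part, and a few narrow regions that neither replicate overlaps have the highest scores, up to 1.99.

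A member was called found in a replicate when at least 1 bp of it lay in a region of that replicate. Both replicates found 722 of 1912 members, or 37.8% (95% Wilson interval 35.6 to 40.0, which covers counting error only). Over the whole-series regions of all scaffolds the share was 35.1%, slightly below that interval. On the interiors of 2L, 3R and X it was 40.9%, 40.7% and 36.6%. A further 359 members (18.8%, against 18.8% over all scaffolds) were found in replicate 1 only and 122 (6.38%, against 8.36%) in replicate 2 only. The remaining 709 (37.1%, against 37.8%) were found in neither. In bases the picture differed: members found in both replicates held 69.0% of all member bases, and those found in neither held 15.1%.

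Support by the replicates followed width closely. Among members under 2 kb, 25 of 946 were found in both replicates (2.64%, against 2.69% over all scaffolds). At 2 to 10 kb this was 583 of 851 (68.5%, Wilson interval 65.3 to 71.5, against 63.9%). Among blocks of 10 kb or more it was 114 of 115 (99.1%, against 99.5%). Wide regions can meet others more readily by position alone. The lists also differed in their narrow end: as deposited, the shortest region in the replicate lists was 1301 bp, while 419 members (21.9%) were narrower than this, of which 387 were found in neither replicate (92.4%, against 91% over all scaffolds) and 0 in both (against 0.0374%). Without them, 48.4% of the 1493 other members were found in both replicates (against 44.8%) and 21.6% in neither (against 23.1%).

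Members found in both replicates were covered in large part. The median covered share of the 722 members was 85.8% in replicate 1 and 75.7% in replicate 2. At least 90% of the region was covered in both replicates for 85 members (4.45%, against 4.07% over all scaffolds). Across the 722 members the replicate scores had coefficients of 0.68 (Spearman) and 0.73 (Pearson), given as a description. Of these members, 458 met exactly 1 region of each replicate, and in 452 the replicate regions also overlapped one another. In these 452 pairs the starts lay a median of 271 bp apart and the ends 302.5 bp apart, and 39.6% of the edges agreed to within 200 bp. The region of replicate 1 was the wider in 285 pairs and that of replicate 2 in 166.

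Nearly all that the replicates marked on the 3L interior was in the whole-series list. Only 8 of 1374 regions of replicate 1 and 6 of 1100 of replicate 2 overlapped no member or other whole-series region. The replicates shared 3.00 Mb of 5.09 Mb marked in either, a Jaccard index of 59.0%. The shared bases were 67.4% of those of replicate 1 and 82.7% of those of replicate 2, so the smaller list lay largely within the larger. The whole-series list added 1.67 Mb on the 3L interior that neither replicate covered.

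Along the arm, rich and poor stretches alternated without a trend from telomere side to centromere side. The interior was read in 205 full steps of 100 kb from its telomere-side end. The covered share of a step, as the mean of the replicates, had a median of 15.7%, with quartiles of 6.39% and 29.0%, and ran from 0% to 82.0%. Across steps the covered share and the position had a Spearman coefficient of 0.04. Members per step numbered 0 to 21, with a median of 10. Between the replicates, Spearman's and Pearson's coefficients were both 0.95 across the 205 steps, which share their libraries and are not independent. Replicate 1 covered more than replicate 2 in 162 steps, less in 33 steps, and both covered nothing in 10. The standard deviation between the replicates within a step had a median of 2.53 percentage points and reached 13.9. Across steps the standard deviation of the covered share was 16.6 points in replicate 1 and 15.9 in replicate 2.

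**Figure D2:**
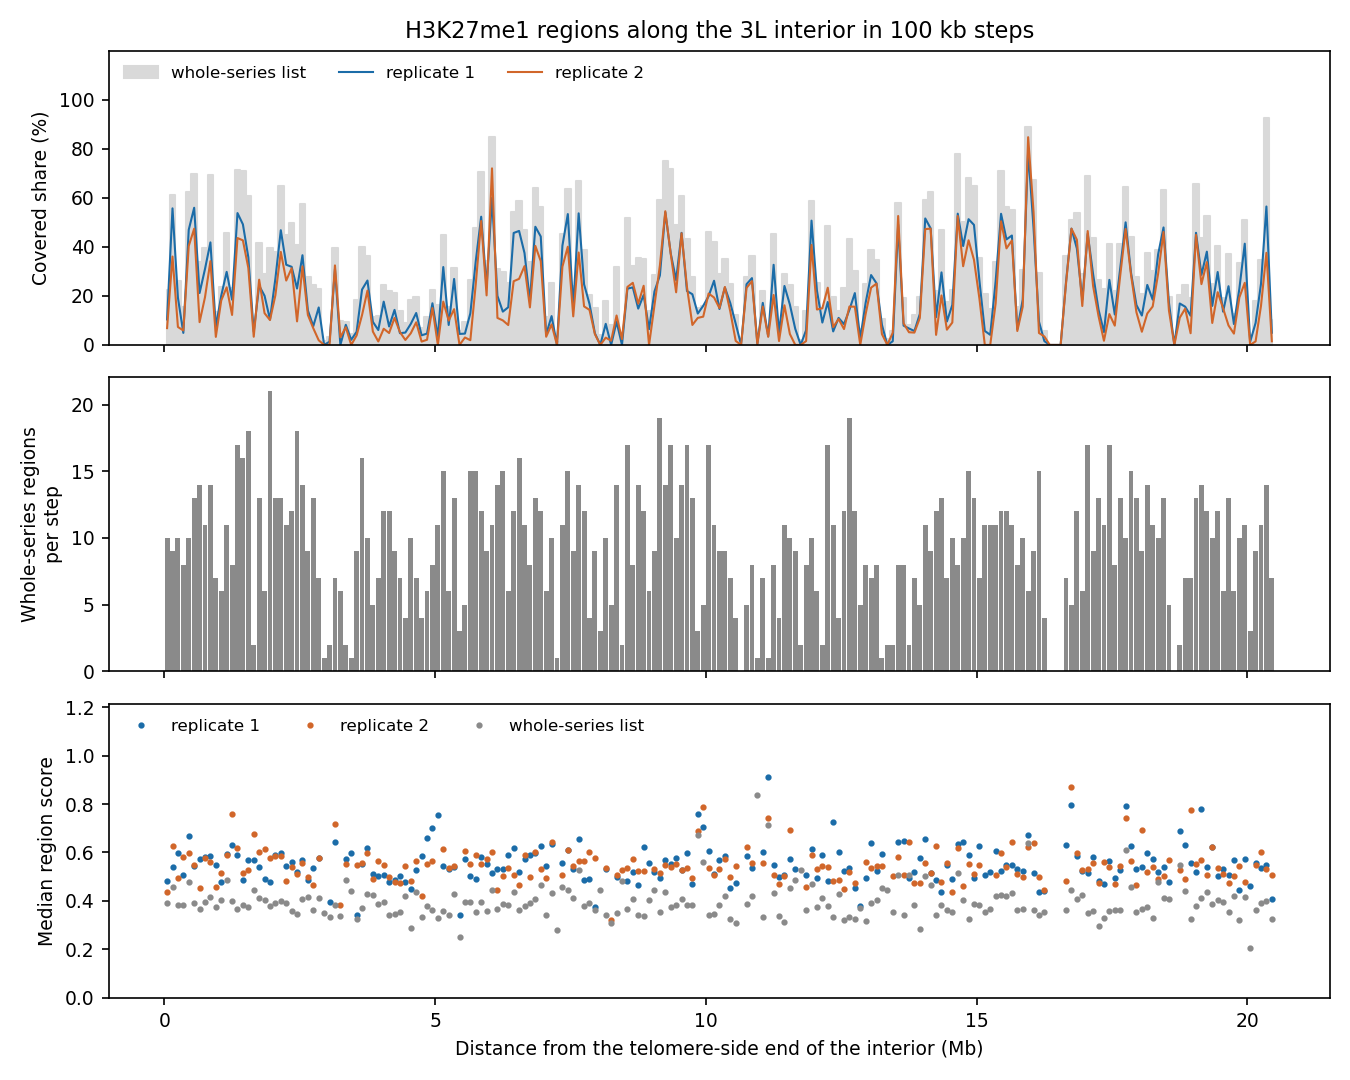
Values in the 205 full 100 kb steps along the 3L interior, with the distance from its telomere-side end in Mb on the x axis. Top, covered share (%) in the whole-series list (grey area), replicate 1 (blue) and replicate 2 (orange); middle, whole-series regions per step; bottom, median region score per step in each list. The replicate lines run together between 0% and 84.7%, while the scores of most steps stay in a narrow band.

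**Figure D3:**
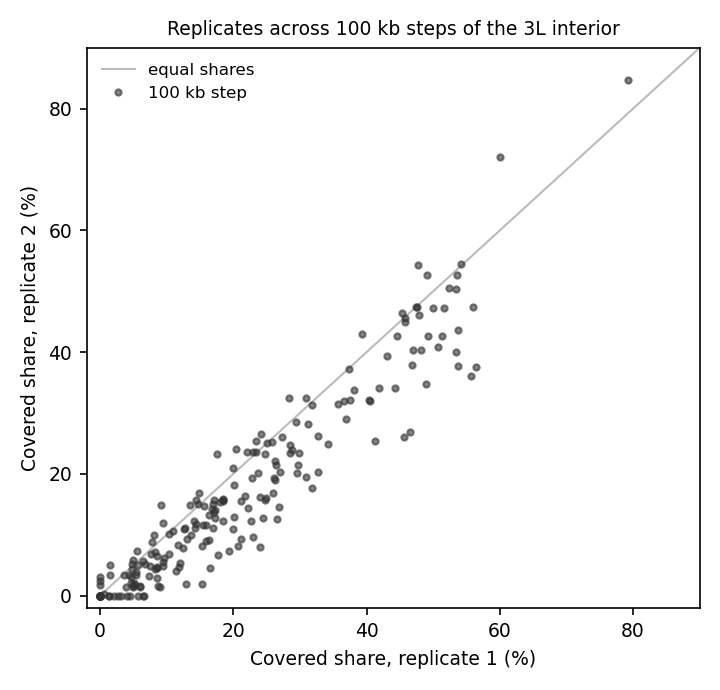
Covered share of each of the 205 full 100 kb steps of the 3L interior in replicate 1 (x axis, %) and replicate 2 (y axis, %), with the line of equal shares. Most steps, 162 of 205, lie below the line, where replicate 1 covers more.

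The covered share of a step, which is built from the number and width of its regions, followed number most closely, then width, then score. Score is no part of that share, so its weaker relation is no separate result. In the whole-series list the covered share of a step had a Spearman coefficient of 0.75 with the number of regions (205 steps), 0.52 with their median width and 0.22 with their median score (200 steps with a region). In replicate 1 these were 0.93, 0.35 and 0.30, and in replicate 2 they were 0.94, 0.45 and 0.27. The replicates themselves followed one another closely in the number of regions per step (Spearman 0.89, 205 steps) and loosely in median width (0.44) and median score (0.33) over 180 steps. Covered share depends on the number and width of regions by construction, although regions were counted by midpoint and their bases by position, so these values are no independent relations.

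The steps at or above the upper quartile of the covered share, 29.0%, held most of the marked bases. These 52 steps held 53.2% of the step bases of replicate 1 and 57.8% of those of replicate 2. The 52 steps at or below the lower quartile, 6.39%, held 4.35% and 2.85%. Members in these rich steps numbered 639, with a median of 12 per step. They had a median width of 3006 bp and scores with a median of 0.41, and 81 of the 115 blocks of 10 kb or more lay there. Members in the poor steps numbered 260, with a median of 4.5 per step. They had a median width of 1492.5 bp and scores with a median of 0.36, and included 1 long block. Of the members in rich steps 54.3% were found in both replicates, and of those in poor steps 11.9%. The steps were chosen by replicate coverage. The contrasts in bases held, regions per step, width, long blocks and replicate support therefore describe that choice and are no separate evidence.

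The alternation was fine-grained. The covered share of a step had a Spearman coefficient of 0.29 with that of the next step, 0.05 at a distance of 2 steps and 0.04 at 10 steps. Of the 52 rich steps, 14 stood alone, 8 runs had 2 steps and 7 runs had 3 or more. The 52 poor steps formed 20 single steps, 9 runs of 2 and 4 runs of 3 or more. In the 20 full megabases of the interior, the highest and the lowest 100 kb step of a megabase were a median of 45.3 percentage points apart.

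At the scale of 1 Mb the covered share still varied widely across the interior, and the replicates had a Spearman coefficient of 0.95 across the 20 full megabases, as a description. The richest was the megabase starting at 16000001, with 36.0% in replicate 1 and 29.6% in replicate 2. It was followed by the one from 8000001, with 34.9% and 27.6%, and the one from 17000001, with 30.7% and 27.4%. These 3 also held 108, 118 and 99 members. The poorest was the megabase from 6000001, with 9.65% in replicate 1 and 6.23% in replicate 2, followed by its neighbour from 5000001, with 11.2% and 8.79%. The megabase from 10000001 had 10.6% and 10.9% and was 1 of 2 in which replicate 2 covered more. The other 14 full megabases had replicate means of 12.5% to 27.4%. The megabase with the most members was not the most covered, nor the one with the fewest the least covered. Members are counted in the whole-series list and covered shares in the replicate lists. The megabase from 19000001 had the most members, 126, with a covered share of 24.1% ± 2.7 (SD, n = 2). The one from 15000001 had the fewest, 50, with 14.3% ± 0.3. Median scores stayed between 0.34 and 0.41 in all 20 megabases.

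The longest rich stretch spanned 4 steps, from 16600001 to 17000000. Replicate 1 covered 48.5% of it and replicate 2 covered 40.5%, against 65.2% for the whole-series list. It held 46 members, 10 of them blocks of 10 kb or more. Of the 46 members 23 were found in both replicates, where the share over all scaffolds was 35.1%. Rich stretches were chosen by high replicate coverage, so their covered shares and this count describe that choice. Its 4 steps had replicate means of 53.1%, 36.2%, 47.0% and 41.8%, while the step before it had 12.7% and the step after it 22.6%. The stretch therefore began abruptly on the telomere side.

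The next rich stretches by the naming rule had 3 steps each. The one from 3300001 to 3600000 had 46.3% and 39.2% covered in the replicates and held 51 members; it ended sharply, since its last step had 33.6% and the following step 4.41%. The one from 4100001 to 4400000 had 37.1% and 31.8% with 36 members. In the one from 8400001 to 8700000 the replicates were farther apart, with 43.2% and 28.4%. The one from 11100001 to 11400000 had 39.9% and 41.4% with 50 members, so there replicate 2 covered slightly more. The remaining 2 rich stretches held 35 and 38 members, with replicate means of 45.6% ± 2.1 and 35.8% ± 1.5 (SD, n = 2).

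Poor stretches were chosen by low replicate coverage, so their low shares and the few members found in the replicates describe that choice. The stretch from 18200001 to 18600000 had 0.38% covered in replicate 1 and 0.86% in replicate 2, with 4 members. From 9900001 to 10300000 the shares were 3.34% and 2.28%, but 27 members lay there, with a median width of 1327 bp, and 19 of them were found in neither replicate. From 13600001 to 13900000 the shares were 4.19% and 0.53%, with 19 members and 0 found in both. From 15200001 to 15500000 they were 3.24% and 3.14%, with 5 members, 1 of them a block of 10628 bp. The 4 stretches thus held very different numbers of members, from 4 to 27.

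Single steps showed the extremes. The most covered was the step from 17900001 to 18000000, with 79.2% in replicate 1 and 84.7% in replicate 2, made of 6 members. Next came the step from 8000001, with 60.0% and 72.0% over 11 members, and the step from 11200001, with 54.1% and 54.5% over 14. The steps from 16600001 and 17400001 followed, with replicate means of 53.1% and 52.0%. In 4 of these 5 steps the replicates differed by under 6 percentage points, and in the step from 8000001 replicate 2 was the higher by more. The step most covered in the whole-series list, picked after its value was seen, was another: from 22300001 to 22400000 the list covered 92.6%, against 56.5% in replicate 1 and 37.6% in replicate 2. At the other end, 10 steps had no replicate base; the first 5 of them start at 4900001, 9200001, 10000001, 12600001 and 13700001. The whole-series list still had 1, 1, 3, 0 and 2 members in them and covered at most 4.01% of a step.

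Spacing was uneven as well. Gaps between neighbouring members had a median of 2165 bp, with quartiles of 659 and 6978 bp. In replicate 1 the median gap was 3207 bp and in replicate 2 it was 3764.5 bp. Of 1913 gaps in the whole-series list, 620 (32.4%) were shorter than 1 kb, so members often came in close series. Joining members less than or equal to 1 kb apart left 1292 domains, of which 374 held several members and the largest held 12. At the other end, 90 gaps of 30 kb or more took up 5.80 Mb, or 28.2% of the interior, and 13 of the gaps exceeded 100 kb. No base of either replicate lay in 58 of those 90 gaps. Few could lie in any of them, since the whole-series list held 98.4% of the interior bases marked in either replicate.

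The longest gap lay from 18236680 to 18612349 and measured 375.7 kb. It held no region of either replicate, and was bounded by narrow members of 1572 and 2197 bp. The gaps from 12565580 to 12757363 and from 20533506 to 20724272 measured 191.8 and 190.8 kb and were also empty in both replicates. The gap from 11826609 to 11953876 measured 127.3 kb, with 451 bp of it covered in replicate 1. Unlike the longest gap, it lay directly between high-scoring regions found in both replicates, 6266 bp with a score of 0.70 on one side and 4376 bp with a score of 1.09 on the other. The gap from 5348547 to 5473475 measured 124.9 kb and was empty in both replicates. The whole-series list held 98.4% of the interior bases marked in either replicate, so emptiness of its gaps in the replicates is no separate evidence. Sequence to which reads cannot be placed was not assessed in these gaps.

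The longest block and the longest gap of the interior lay close together. The block, from 17955115 to 18033384, measured 78.3 kb with a whole-series score of 0.82. Replicate 1 covered 96.03% of it with 6 regions, the largest of 50.1 kb with a score of 0.97. Replicate 2 covered 98.1% with 4 regions, the largest of 57.6 kb with a score of 0.87. In both replicates the telomere-side part was thus 1 long high-scoring region, and the centromere-side part was broken into shorter regions with scores of 0.40 to 0.79 in replicate 1 and 0.58 to 0.72 in replicate 2. With neighbours no more than 1 kb away, the block was part of a domain of 125.5 kb from 17916007 to 18041464 that held 5 members. The gap began 203.3 kb beyond the block, and 28 members lay between, of which 5 were found in both replicates and 16 in neither. Over all scaffolds these shares were 35.1% and 37.8%, and whether the 28 members differ from them was not tested.

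**Figure D4:**
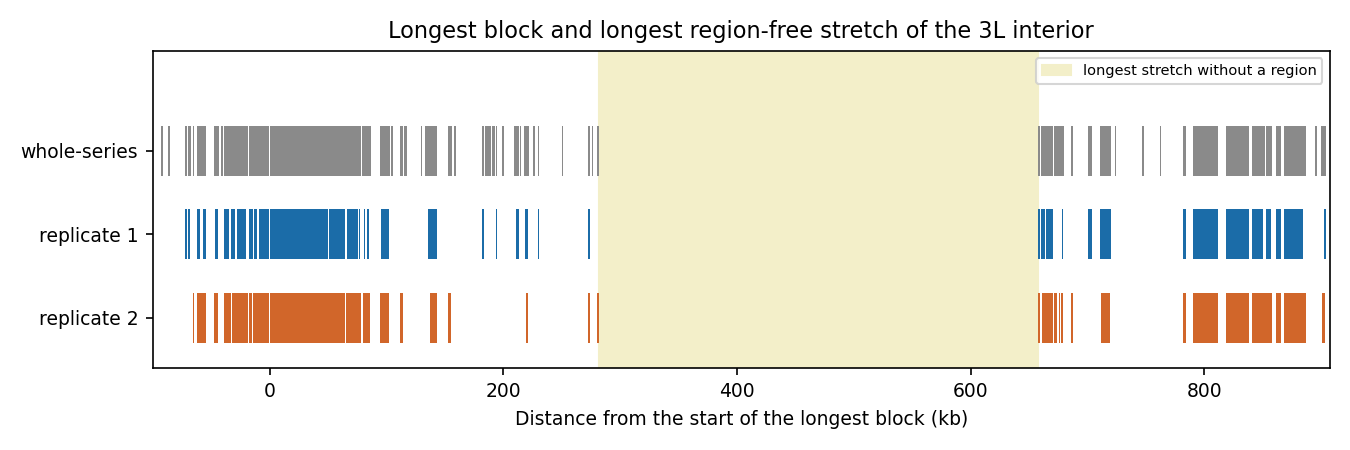
Regions of the whole-series list (grey), replicate 1 (blue) and replicate 2 (orange) around the longest block of the 3L interior, with the distance from the start of that block in kb on the x axis. The shaded stretch of 375.7 kb holds no region in any of the 3 lists, and the block appears in all of them.

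The other 9 of the 10 longest blocks measured 21.5 to 30.2 kb. Each of the 10 was found in both replicates, as were 99.5% of the regions of 10 kb or more over all scaffolds. The block from 7808834 to 7839047 measured 30.2 kb and was covered at 83.5% in replicate 1 and 80.5% in replicate 2, in 4 regions each. That from 2791337 to 2820807 measured 29.5 kb and was covered at 97.8% and 91.8%, as 1 region in replicate 1 and 4 in replicate 2. The block from 2557057 to 2586397, of 29.3 kb, was 1 region in each replicate, with scores of 0.93 and 0.96, and had the highest whole-series score of the long blocks, 0.93. The least covered of the 10 was the block from 16681570 to 16704650, with 63.1% and 64.0%. Across all 115 blocks of 10 kb or more, the median covered share was 85.9% in replicate 1 and 83.4% in replicate 2. A block was made of a median of 2 regions in each replicate. These blocks were spread over 79 of the 100 kb steps.

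Strong signal found in both replicates was not confined to long blocks. By the lower of the replicate scores, among members at least 90% covered in both replicates, the first was a region of 9.43 kb from 18795899 to 18805331, with scores of 1.25 and 1.04. It was followed by 7.02 kb from 6965985 to 6973008, with 1.07 and 0.99, and by 4.38 kb from 11953877 to 11958252, with 1.22 and 0.98. The last of these borders the gap of 127.3 kb. The blocks of 29.3 kb from 2557057 and of 22.4 kb from 16134500 completed the 5, with lower replicate scores of 0.93 and 0.88.

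Of the 5 highest scores of the whole-series list on the 3L interior, 4 belonged to narrow regions that neither replicate list held. The highest, 1.99, was a region of 1035 bp from 6424195 to 6425229. The next 2 had scores of 1.33 and 1.25, measured 1001 and 1172 bp and started at 11607052 and 21148931. The fifth had 1.11 over 1051 bp from 9126451. None of these 4 overlapped a replicate region, and all were narrower than any region of a replicate list as deposited. The fourth differed: it measured 3118 bp from 11962465 to 11965582, had a score of 1.16, and was covered at 96.2% in replicate 1 with a score of 1.27 and at 85.0% in replicate 2 with 1.06. Among the 20 highest-scoring members, 13 were found in both replicates and 7 in neither, and all of these 7 were narrower than 1301 bp. Over all scaffolds 35.1% of regions were found in both and 37.8% in neither. Of the regions under 1301 bp 91% were found in neither there, so the missing overlap of narrow members is not particular to high scores.

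The lowest scores included the only line called depleted, which was looked up after its value was seen. It lay from 3809871 to 3811425, measured 1555 bp and had a whole-series score of -0.0007. Replicate 1 had a region called enriched over all of it, with a score of 0.17, second from the lowest of its 1374 regions, and replicate 2 had none. The lowest-scoring enriched member, from 19906617 to 19908213, had a score of 0.02. It was also the lowest-scoring region of replicate 1, with 0.13, and of replicate 2, with 0.09, so the weakest enriched region of the interior lay at the same place in each of the 3 lists.

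The interiors of 2L, 3R and X, defined in the same way, were used for comparison. The 3L interior was covered more than those of 2L and 3R and less than that of X in each replicate. In replicate 1 the covered share was 18.5% on 2L, 20.1% on 3R, 21.7% on 3L and 24.5% on X. In replicate 2 it was 15.3%, 16.0%, 17.7% and 19.3% in the same order. The difference within a replicate was 2.80 ± 0.54 percentage points from 2L, 1.62 ± 0.06 from 3R and -2.20 ± 0.79 from X (3L minus the other, SD, n = 2). Each of these differences exceeded its own spread and kept its direction in 2 of 2 replicates, while the SD between the replicates of a single interior was 2.29 to 3.62 percentage points. No test was made, since the smallest two-sided p of an exact sign-flip test over 2 replicates is 0.5.

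The greater coverage of the 3L interior than of 2L and 3R went with more regions. The density on 3L was 1.20 ± 0.06 times that on 2L and 1.10 ± 0.03 times that on 3R, and 0.874 ± 0.003 times that on X (SD, n = 2). Median widths on 3L minus those on 2L were -124.5 bp in replicate 1 and 105.5 bp in replicate 2, so they had no common direction, and the same held against 3R with -73 and 61.5 bp. In the whole-series list the median on 3L was the lower, by -128 bp against 2L, -206.5 bp against 3R and -109.5 bp against X. Median scores on 3L minus those on 2L were -0.0032 in replicate 1 and -0.00071 in replicate 2, with a mean of -0.0020 ± 0.0018, a common direction of small size. Against 3R the difference was 0.0013 ± 0.0046, less than its spread. Against X the difference was -0.092 ± 0.005, so scores on the 3L interior lay far closer to those of 2L and 3R than to those of X. When the lower-scoring part of each list, below its median score, was left out, the 3L interior kept its place above 2L and 3R in each replicate, with 12.5% ± 2.1 against 10.9% ± 1.8 and 11.5% ± 2.3, while X had 18.2% ± 2.8 (SD, n = 2).

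**Figure D5:**
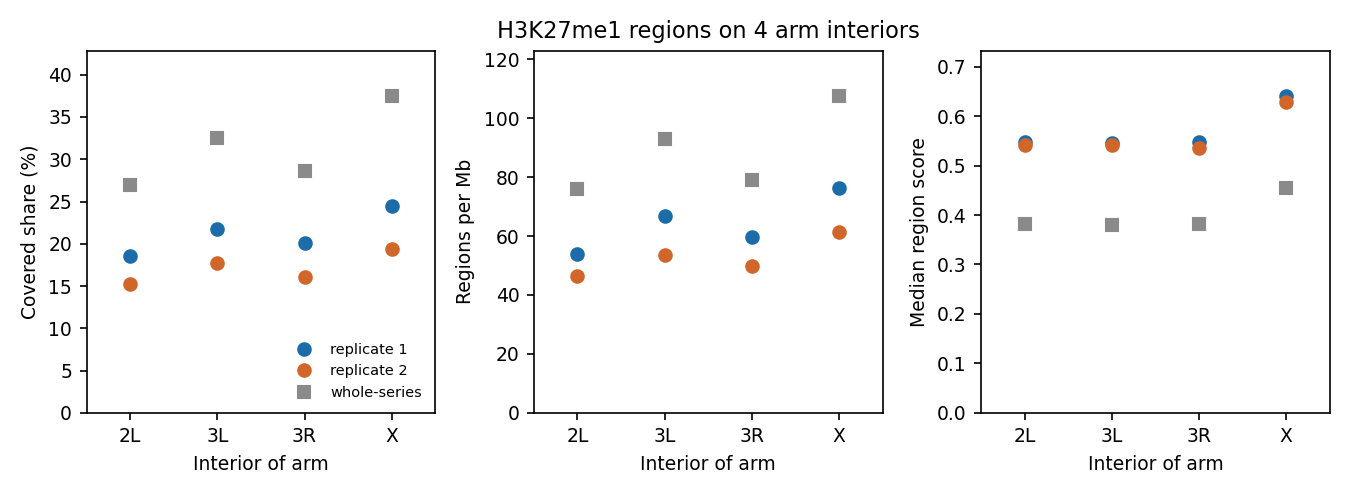
Covered share (%), regions per Mb and median region score on the interiors of 2L, 3L, 3R and X, each without 2 Mb at either end; points are replicate 1 (blue), replicate 2 (orange) and the whole-series list (grey squares). In each list the 3L interior lies above 2L and 3R and below X in covered share and in density, and with 2L and 3R below X in score.

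In empty ground the 3L interior lay between X and the other autosomal interiors, while the overlap of the replicates in bases was close to that on 2L and 3R. The Jaccard index of the replicates was 59.0% on 3L, 59.1% on 2L, 58.7% on 3R and 54.1% on X. The share of whole-series regions found in both replicates was 37.8% on 3L, 40.9% on 2L, 40.7% on 3R and 36.6% on X. The share found in neither was the highest of the 4 on 3L, with 37.1% against 32.4%, 32.5% and 35.2% in the same order. Over all scaffolds, which include regions outside these interiors, 35.1% were found in both and 37.8% in neither. Steps of 100 kb without a replicate base made up 4.88% of the full steps on 3L, 7.89% on 2L, 8.37% on 3R and 4.35% on X. In the whole-series list, gaps of 30 kb or more took up 28.2% of the 3L interior, against 39.8% on 2L, 35.6% on 3R and 18.6% on X. The longest gap of the 3L interior, 375.7 kb, was longer in that list than the longest on the interiors of 2L (283.2 kb), 3R (296.2 kb) and X (190.3 kb). The replicate lists were nearer to one another: replicate 1 had 383.1 kb on 3L, 370.3 kb on 2L, 348.5 kb on 3R and 292.2 kb on X. Replicate 2 had 376.0 kb, 299.2 kb, 348.8 kb and 283.4 kb in the same order.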

How the data were processed

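H3K27me1 regions were read from 3 deposited lists, 1 for each of 2 ChIP replicates and 1 for the whole series. Positions are on FlyBase release 5 and lines are named enriched or depleted, per the file headers and columns. Bowtie 0.12.7 is named in the submitters' processing notes; its role, the region caller, the threshold, the use of input and how the replicates were combined are likewise not given in the sources used here. Each region carries an enrichment score computed by the authors, as deposited, on a scale that is not stated.

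From these lists, covered shares, densities, gaps between merged regions and overlaps (at least 1 bp) were computed on the interior and in 100 kb steps; a last step of under 100 kb was left out of step statistics. Regions are not replicates and steps share libraries, so correlations carry no p. A rich or poor stretch is a run of 3 or more steps at or past the upper or lower quartile of the mean covered share of the replicates. Named are the 10 longest and 5 highest-scoring members, the 5 longest gaps, the 5 most and 5 least covered steps, up to 5 stretches of each kind, and the 5 members with the highest lower replicate score among those at least 90% covered in both; ties went by position. The lowest-scoring members were added after their values were seen. The members and rules were chosen with earlier results of these data known. Interval functions were tested on simulated data. Alternatives were a score minimum, a width minimum, joining within 1 kb, other ends, other steps, other overlap rules, exchanged lists and each replicate alone. The gene table is on release 6, so no gene position was used, and no genome sequence was used. Python 3.11.15, numpy 2.4.6, pandas 2.3.3, scipy 1.17.1 and matplotlib 3.10.9 were used.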

Additional observations from a re-analysis of the deposited data

How the results depend on the processing

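Of 73 values recomputed under alternatives for 10 results, 36 were labelled the same, 36 moved and 1 turned its direction. The bound was the SD between replicates or the counting interval. For the Jaccard index and the step correlation there was no such bound, so any change at all counted as moved. A single replicate always lies within the SD of 2. No replicate region of the interior was under 1301 bp, so that minimum could not change results from the replicate lists. Such values are no evidence of stability. The covered share of the 3L interior over that of the joined 2L, 3R and X interiors was 1.05; it was 0.936 without regions below their list's median score, where X had 18.2% covered, and 1.01 on whole arms. That limit also gave a covered share of 12.5%, 35.7 regions per Mb, a median width of 4474 bp, a median score of 0.51, a median gap of 8220 bp, 41.5% found in both replicates, a Jaccard index of 52.6%, a step correlation of 0.92 and a score difference of -0.017 against -0.033 as reported. Regions of at least 1301 bp gave 72.7 per Mb, 2616 bp, 0.390, 2782 bp and 48.4% found in both. Joining within 1 kb gave 62.9 per Mb, 2750.5 bp, 0.394, 4495 bp, 43.0%, a Jaccard index of 60.3% and a step correlation of 0.947. The whole-series list covered 32.5%; the replicate lists averaged 60.2 regions per Mb, 2249.75 bp, a score of 0.54 and a gap of 3485.75 bp. Found in both replicates were 29.6% when at least 50% of each region had to be covered and 4.45% at 90%. With 3 Mb left out at each end the Jaccard index was 59.7% and the step correlation 0.953; on the whole arm they were 58.7% and 0.946. Steps of 50 kb, of 200 kb and offset by 50 kb gave correlations of 0.934, 0.952 and 0.950. With each replicate alone the covered share was 17.7% to 21.7%, the arm ratio 1.04 to 1.05 and the score difference -0.038 to -0.029. Leaving out depleted lines, an alternative added after the data were seen, moved none of 5 results beyond those bounds. No paired analysis was possible because the groups that share replicate numbers are ChIP and input, and no input list was analysed; differences between arms were taken within each replicate. Read depth is unknown, so the reach of either library into weak regions cannot be stated.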

Other observations

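The replicates were farthest apart in 3 steps of the 3L interior, which were picked by that gap. The step from 8400001 to 8500000 was covered at 45.7% in replicate 1 and 26.0% in replicate 2. Its neighbour from 8500001 to 8600000 had 46.5% and 27.0%, and the step from 2100001 to 2200000 had 55.7% and 36.1%. In each of them replicate 1 was the higher.

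Neighbouring 100 kb steps differed by a median of 12.0 percentage points in replicate mean, and 29 pairs of neighbours differed by 30 points or more. The widest difference was between the step from 17800001, at 17.0%, and the one ending at 18000000, at 82.0%. Beyond that peak the replicate means of the following steps were 51.0%, 7.19%, 2.49% and then 0% in 3 steps in a row, before 25.5% in the step from 18600001 and 47.4% in the step after it.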
